A study of Procambarus virginalis with 3 samples.

Results

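The 100 gene models described here were expressed strongly and at nearly the same level, in deposited TPM, in all 3 hemocyte RNA-seq libraries of the marbled crayfish (*Procambarus virginalis*). They are candidates for genes of constant expression on that scale, and the result depends on the scaling. None of the 100 stayed within the same limit after rescaling by TMM or by DESeq2 size factors, both of which set the typical gene level between libraries. With plain library totals 78 stayed within it, and 52 did when TPM was renormalised without the 100 most abundant models. The 100 models were chosen by their level and spread in TPM, a measure of transcript abundance that is corrected for length and has the same sum in every library. A model was taken when its mean TPM was at least 100, when its coefficient of variation (SD divided by mean over the libraries) was under 0.05, and when it was not among the 100 models with the highest mean TPM. Of 21773 gene models listed, 1302 lay in this range of levels, and 100 of these (7.68%) were steady enough. The other 1202 models of the range served for comparison. Both the level and the spread of the steady models in TPM were therefore fixed by the choice and are given as a description.

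Hemocytes are the circulating cells of crustacean blood. They engulf and encapsulate microbes, release clotting proteins and carry the prophenoloxidase system, the enzyme cascade behind melanin formation in arthropods. Genes that keep a constant mRNA level across samples are used as internal references, because the level of another gene can be stated relative to theirs. Such genes are often sought among those with basic cell functions, such as translation, the cytoskeleton and energy metabolism.

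The libraries are called hem37, hem39 and hem40 and form a single group, hemocytes. The labels give pooled wild catches from lake Reilingen as the source, with no treatment, age or number of animals for each library. The species is parthenogenetic, so that all animals belong to a single clonal lineage. Nothing in the labels says that the libraries came from separate animals, and the tests below measure only the spread between these 3 libraries, which may be technical. Total expected counts (RSEM's estimated number of reads per gene model) were 18986789 (hem37), 17367967 (hem39) and 21143354 (hem40). The files do not pair the identifiers of gene models with gene names. The identity of the tissue could not be checked against marker genes, no function can be given for any model, and models are called by their identifiers, which hold a scaffold and a prediction method.

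The steady models covered the range from 100 to 1485 in mean TPM, a 14.8-fold range, with a median of 219 and quartiles at 136 and 386. Together they held 3.51% of TPM (hem37), 3.52% (hem39) and 3.56% (hem40). The model with the highest level, maker-scaffold23229-snap-gene-0.1, had a TPM of 1487 (hem37), 1528 (hem39) and 1440 (hem40), a mean of 1485 ± 43.9 (SD, n = 3). It is annotated with 3 transcripts, and only 1 other steady model has more than 1. The next model, evm-scaffold18909-processed-gene-0.4, had a TPM of 1401 (hem37), 1394 (hem39) and 1492 (hem40). Here hem40 was the highest library, whereas the model above it was lowest there. The third, snap_masked-scaffold88665-processed-gene-0.3, had 1290, 1364 and 1278 TPM in the same libraries.

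At the lower end, snap_masked-scaffold34227-processed-gene-0.9 had a TPM of 98.3 (hem37), 101 (hem39) and 101 (hem40), with a mean of 100.3 ± 1.73 (SD, n = 3). Just above it, maker-scaffold38979-snap-gene-0.21 had 99.5, 105 and 101 TPM in the same libraries. This was also the longest steady model, with 8835 bases. The model maker-scaffold75766-snap-gene-1.34 had 100, 103 and 105 TPM in hem37, hem39 and hem40, and it was lowest in hem37 like both models below it. Single libraries thus fell on either side of 100 TPM for the weakest steady models. Ordered by mean TPM, 88 of 99 neighbouring pairs of steady models differed by less than the sum of their SDs, so the order is fixed only over wider distances.

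**Figure D1:**
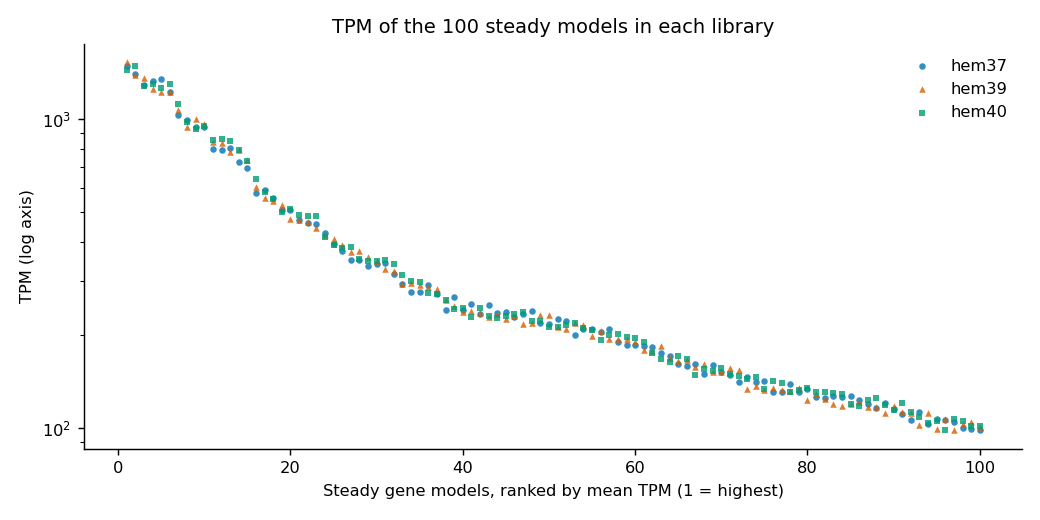
TPM in hem37 (circles), hem39 (triangles) and hem40 (squares) for each of the 100 steady models, ranked from the highest mean TPM (1485) to the lowest (100.3), on a logarithmic axis. The 3 points of a model lie close together at every level, and no library is highest throughout.

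The coefficient of variation of the steady models had a median of 3.49%, with quartiles at 2.55% and 4.18%. In the other models of the same TPM range the median was 15.8%, with quartiles at 10.6% and 25.6%, and over all models with a mean TPM above 0 it was 25.2%. This contrast holds for TPM, the scale of the choice. After TMM rescaling the medians were 9.92% in the steady models and 14.4% in the others, and with DESeq2 size factors they were 10.8% and 14.4%. The highest library exceeded the lowest by 1.07-fold in the median steady model and by 1.36-fold in the median of the others. No library of any steady model lay more than 5.73% from the mean of that model.

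The steadiest was maker-scaffold1339-snap-gene-0.15, a model of 903 bases with a TPM of 944 (hem37), 962 (hem39) and 951 (hem40). Its coefficient of variation was 0.927%. For maker-scaffold92586-snap-gene-0.2 the values were 229, 231 and 234 TPM in the same libraries, a coefficient of 1.02%. Both models were picked for their low spread, at different levels. Next came snap-scaffold34289-processed-gene-0.19 with 555, 543 and 554 TPM, a coefficient of 1.16%. A further model, snap-scaffold85093-processed-gene-0.1, had 340, 346 and 348 TPM, a coefficient of 1.18%. For snap-scaffold57635-processed-gene-0.3 the values were 131, 135 and 133 TPM, a coefficient of 1.48%. These 5 were the only steady models under 1.5%, while 13 lay under 2% and 38 under 3%.

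The limit of 5% does not mark a gap. A total of 31 steady models had a coefficient between 4% and 5%, and 49 other models of the range had one between 5% and 6%. Just inside, evm-scaffold70452-processed-gene-0.21 had a TPM of 240 (hem37), 219 (hem39) and 222 (hem40), a coefficient just under the limit. Just outside, evm-scaffold8201-processed-gene-0.30 had 583, 580 and 634 TPM in the same libraries, a coefficient of 5.03%. Among models as steady, the nearest under the limit on level was evm-scaffold124467-processed-gene-0.0, with 94.1, 99.7 and 103 TPM and a mean of 98.8. On the upper side, 9 of the 100 models with the highest TPM were as steady. The weakest of these, maker-scaffold14680-snap-gene-0.1, had 1868, 1883 and 1742 TPM in hem37, hem39 and hem40.

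Steady models were found in every part of the range. Their share was 6.29% of 461 models between 100 and 150 TPM, 5.65% of 248 between 150 and 200, 10.5% of 238 between 200 and 300, 7.18% of 181 between 300 and 500, and 10.9% of 174 models above 500. These shares count the models that the rule took at each level and were not compared by a test.

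**Figure D2:**
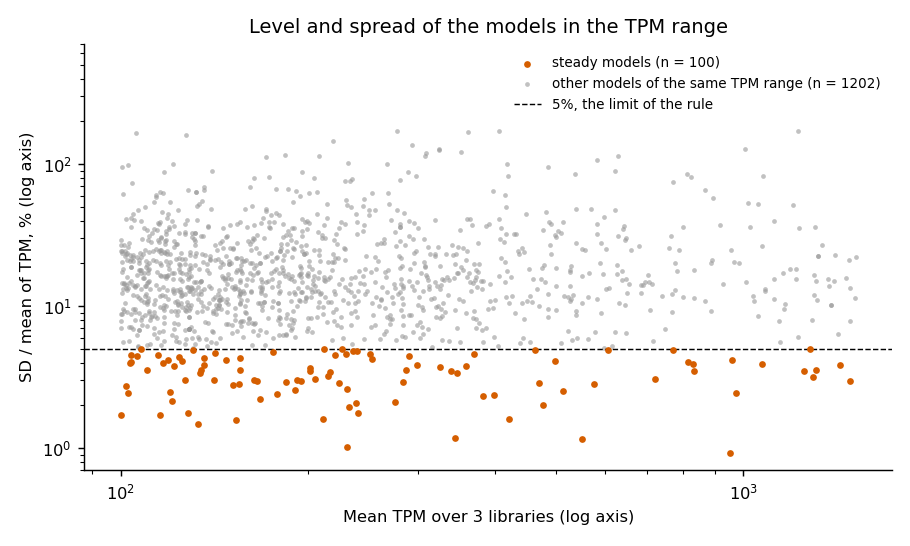
Coefficient of variation of TPM (SD / mean in %) against mean TPM for the 100 steady models and the 1202 other models of the range, both on logarithmic axes, with the 5% limit as a dashed line. The steady models are the lower edge of a continuous cloud whose other members have a median of 15.8%.

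The order of the libraries within a model was next examined. Of the 100 steady models, 44 were highest in hem40, 29 in hem37 and 27 in hem39, while 45 were lowest (hem37), 33 (hem39) and 22 (hem40). The most frequent order was highest in hem40 and lowest in hem37, with 28 models. Among the other models of the range, 53.9% were highest in hem40 and 57.3% were lowest in hem39. The low TPM in hem39 that was frequent at these levels was therefore seen in a smaller share of the steady models, as follows from a rule that admits only small differences.

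The same could be read from the ratios between libraries. The median log2 ratio of TPM, hem39 over hem40, was -0.017 in the steady models, with a lowest value of -0.14 and a highest of 0.14. It was -0.24 in the other models of the range and -0.31 over all models tested for sampling noise. For hem39 over hem37, the medians were 0.0071 in the steady models, -0.14 in the other models of the range and -0.20 over all. A model that is level in TPM thus lay above the typical model in hem39. The 100 models with the highest TPM held 37.3% of TPM (hem37), 38.8% (hem39) and 32.8% (hem40). Their effect on the spread of the steady models is given with the other scalings.

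Steadiness depended on the scaling between libraries. TMM (trimmed mean of M values), a scaling that sets the typical gene level between libraries, multiplied TPM by 0.974 (hem37), 1.12 (hem39) and 0.919 (hem40). After this rescaling, the coefficient of variation of the steady models had a median of 9.92%, a lowest value of 5.28% and a highest of 15.1%. None of the 100 stayed under 5%. All 100 were then highest in hem39, and 79 were lowest in hem40 and 21 in hem37. Relative to the mean of each model, the median steady model lay at 10.9% in hem39, at -3.95% in hem37 and at -7.48% in hem40. The factors alone have a coefficient of variation of 10.3%, so that a loss of most or all models under the 5% limit follows from their size. The loss was also read with each library left out in turn. With TMM scaling of the libraries other than hem39, the median coefficient of the steady models was 2.87%. The rule then took 421 models, and 66 of the 100 were among them. Without hem37 the median was 14.1% and 0 of the 100 were taken, and without hem40 it was 10.1% and 10 were taken. The factor of hem39 lay furthest from the others, so a smaller loss without hem39 follows in part from the factors. With a library left out, each coefficient also comes from fewer values and tends to be smaller. Whether the loss had a source in hem39 beyond its factor was not tested.

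In single models the shift took the same form, which the factors fix for models this level in TPM. The model maker-scaffold1339-snap-gene-0.15, the steadiest in TPM, had rescaled values of 919 (hem37), 1075 (hem39) and 873 (hem40), a coefficient of 11.1%. The smallest coefficient after rescaling belonged to maker-scaffold150-snap-gene-0.0, with 130 (hem37), 138 (hem39) and 124 (hem40). Its deposited TPM had been 134, 123 and 135 in the same libraries, so that hem39 was the lowest library in TPM and the highest after rescaling. The largest belonged to snap-scaffold88452-processed-gene-0.0, a model of 267 bases with rescaled values of 170, 206 and 154. It had already been highest in hem39 in TPM, with 174, 185 and 168. Models that were low in hem39 in TPM were thus the ones nearest to level after TMM scaling.

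The rule applied to TMM-rescaled TPM took 155 models, and with DESeq2 size factors it took 161. Neither set shared a single model with the 100 steady in TPM. The factors have coefficients of variation of 10.3% (TMM) and 11.1% (DESeq2), so that little or no overlap follows from their size. The steadiest after TMM was snap-scaffold79425-processed-gene-0.9, with rescaled values of 208 (hem37), 206 (hem39) and 205 (hem40). Its TPM had been 214, 184 and 223. By contrast, with reads per base relative to the plain library totals, 78 of the 100 stayed under 5%, which is 78.0% of the steady models and 60.9% of the 128 models taken that way. When TPM was renormalised without the 100 most abundant models, the median coefficient of the steady models was 4.87%, between the values with and without TMM, and 52 stayed under 5%. Which scaling reflects the amount of mRNA per cell cannot be told from these files, as they hold no external standard.

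**Figure D3:**
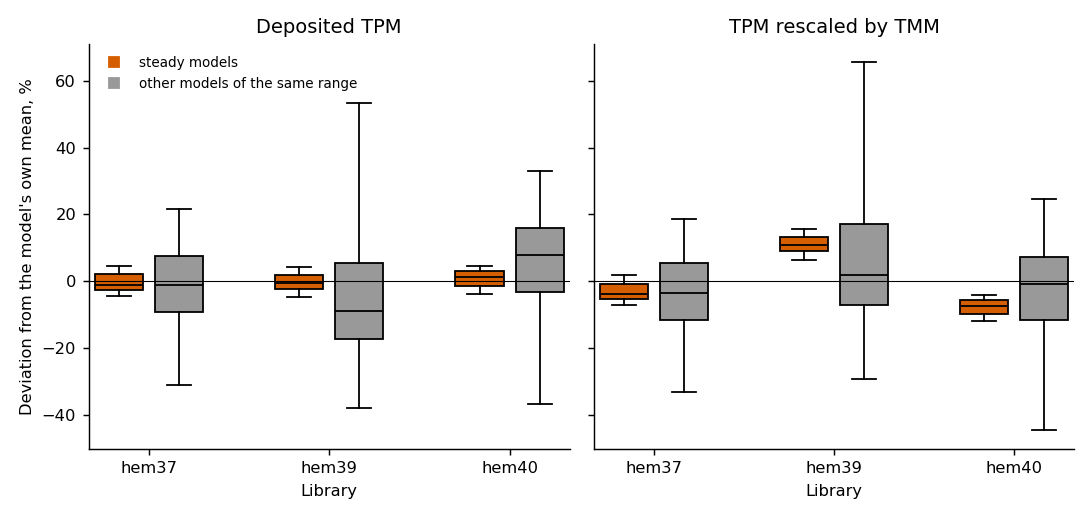
Deviation of each library from the model's own mean in %, for the 100 steady models and the 1202 other models of the range, in deposited TPM (left) and after TMM rescaling (right). Boxes show quartiles with the median as a line, and whiskers the 5th and 95th percentiles. The steady models centre near 0 in TPM, and after rescaling their median is at 10.9% in hem39 and -7.48% in hem40.

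The spread was then set against counting error. The mean expected count per library was between 455 and 74482 in the steady models, with a median of 3386, against a median of 2943 in the other models of the range. Counting error alone amounts to 1.72% of the mean in the median steady model and to 4.69% in the least covered one. In 20 of the 100 steady models the coefficient of variation of TPM was smaller than the counting error, near the share of 17.7% over all models listed. This was so in 1 of the 1202 others, whose coefficients the rule keeps at 5% or above. The shortest steady model, snap-scaffold26142-processed-gene-0.3 (246 bases), had 131, 133 and 140 TPM in hem37, hem39 and hem40 from a mean of 531 counts, and its spread of 3.53% was smaller than its counting error of 4.34%. At this depth, a spread of a few percent could not be told from sampling noise.

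A chi-square test of the 3 counts with 2 degrees of freedom, adjusted by the Benjamini-Hochberg method over all 16170 models with a mean count of at least 10, was used to find models that varied beyond sampling noise. The test uses the counts behind the rule, so its result describes the steady models and does not support the choice. Against a constant TPM, 49 of the 100 steady models varied beyond sampling noise, where 61.4% of all models and 97.5% of the others of the TPM range did. These 49 had a median of 9351 counts and a median coefficient of variation of 3.82%. The other 51 had a median of 1845 counts and a coefficient of 2.87%. Among these 51 was maker-scaffold1339-snap-gene-0.15, with an adjusted p of 0.325 by this chi-square test. The longest model, maker-scaffold38979-snap-gene-0.21, was past the threshold with an adjusted p of 6.87e-06 by the same test, at a spread of 2.74% and a mean of 18004 counts.

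Against TMM-scaled library sizes, 97 of the 100 steady models varied beyond sampling noise, where 55.2% of all models and 90.1% of the others of the TPM range did. This follows the same shift as the rescaled values. Only maker-scaffold150-snap-gene-0.0, maker-scaffold301670-exonerate_est2genome-gene-0.0 and snap-scaffold102277-processed-gene-0.4 did not pass; the last was named after its values were seen. Against plain library totals the number was 60, where 58.9% of all models and 95.9% of the others of the TPM range passed. With TMM and 1 library left out, 44 steady models passed without hem39, 99 without hem37 and 90 without hem40. The shares over all models in these settings are not given here, so the counts are a description. RSEM's own intervals for TPM, whose level is not given, did not overlap between some pair of libraries in 41 of the 100 steady models. Such a pair was found in 50.5% of all models and in 93.3% of the others of the TPM range.

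**Figure D4:**
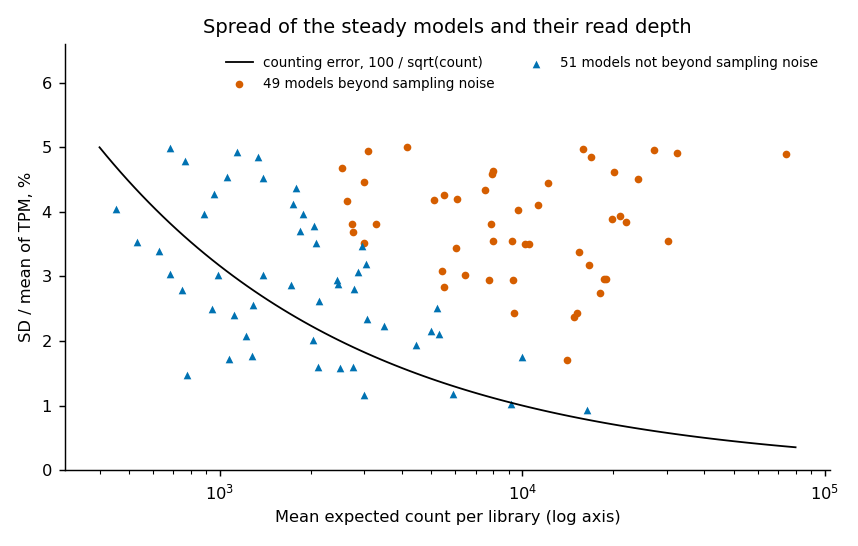
Coefficient of variation of TPM (%) against the mean expected count per library (logarithmic axis) for the 100 steady models, with the spread that counting error alone gives as a line. The 49 models beyond sampling noise at constant TPM (circles) sit at higher counts, with a median of 9351, than the 51 others (triangles), with a median of 1845.

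Whether steadiness held in a library that was not used to choose the models was examined by applying the rule to 2 libraries and reading TPM in the third. With hem37 held out, 205 models were chosen, and 113 of them (55.1%) lay within 10% of their mean in hem37, against 43.1% of the 1101 other models of the range. With hem39 held out, these shares were 29.7% of 367 chosen models and 24.7% of 965 others. With hem40 held out, they were 39.1% of 274 chosen models and 29.6% of 982 others. The share was thus higher in the chosen models for each of the 3 libraries. Over the 3 libraries the share was 41.3% ± 12.9 in the chosen models and 32.4% ± 9.51 in the others (SD, n = 3). The difference between the shares, taken within each held-out library, was 8.84 ± 3.55 percentage points (SD, n = 3). Models are not replicates, and no test was made. Between 82 and 86 of the 100 steady models were among those chosen on each pair of libraries, which the rule nearly fixes.

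The deviations in the held-out library had a direction. The median chosen model lay at -11.2% in hem39 and at 10.6% in hem40, and at -3.55% in hem37. The other models of the range had medians of -14.0%, 8.48% and -2.47% in the same order, so that chosen and other models were displaced in the same direction. For TMM-rescaled TPM the held-out library appears to have entered the factors. The rule took 421, 279 and 265 models with factors refitted without hem39, hem40 and hem37, against 403, 292 and 272 here. TMM sets the typical level of each library it is given, so medians near the mean and higher shares follow in part. These values are thus no test in an unused library. In TMM-rescaled TPM the medians of the chosen models were 3.86% in hem39, 0.833% in hem40 and -2.51% in hem37. On that scale, the shares within 10% were 41.2% of 403 chosen models and 31.3% of 862 others for hem39, 51.4% of 292 and 36.9% of 1027 for hem40, and 60.3% of 272 and 35.2% of 1050 for hem37. The mean was 51.0% ± 9.56 in the chosen models and 34.5% ± 2.87 in the others, with a difference within libraries of 16.5 ± 7.79 percentage points (SD, n = 3).

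**Figure D5:**
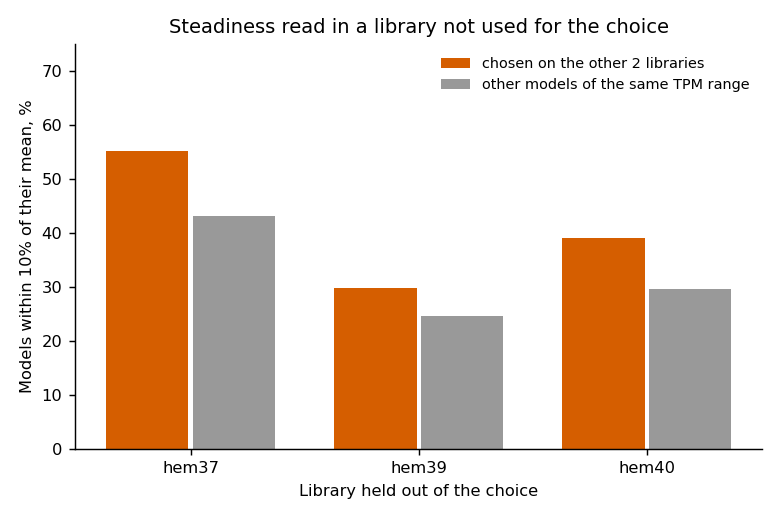
Share of models whose TPM in the held-out library was within 10% of their mean in the other libraries, for models chosen as steady without that library and for the other models of the same TPM range. The share is 55.1% against 43.1% in hem37, 29.7% against 24.7% in hem39 and 39.1% against 29.6% in hem40.

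Features that did not enter the rule were then compared as counts and medians. The median length was 771 bases in the steady models, with quartiles at 437 and 1434, and 728 bases in the other models of the range, with quartiles at 389 and 1445. Over all models listed it was 546 bases. Steady models were thus about as long as other models of the same level, and the direction of the small difference turned when any library was left out of the choice. Of the 100 steady models, 29 were under 500 bases and 18 had 2000 bases or more, against 36.9% and 15.9% of the others. After the longest, the next in length were snap-scaffold60663-processed-gene-0.19 with 6444 bases and evm-scaffold48915-processed-gene-2.80 with 6073 bases. The first had a TPM of 200 (hem37), 219 (hem39) and 218 (hem40). The second had 115, 118 and 114 TPM in the same libraries, a coefficient of 1.71%.

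The prefix of an identifier names the program behind the gene prediction. Models from maker with snap made up 30 of the steady models, evm models 23, snap models 23, maker models built from expressed sequence with exonerate 14, and snap_masked models 10. The shares in the other models of the range were 32.0%, 18.6%, 23.5%, 10.1% and 14.2% in the same order. Another 18 models of the range were built from protein sequence. None of them was steady, and the class is too small for a comparison. The steady models from evm had a median length of 1233 bases and those from maker with snap 1070 bases, whereas the steady snap models had a median of 384 bases and those built from expressed sequence 386 bases. Steady models thus came from every larger class of predictions, in short and long forms.

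RSEM divides reads that align to several transcripts, and the deposited posterior SD of the count gives the uncertainty of that division. It was 0 in every library for 45 of the 100 steady models, against 46.3% of the other models of the range. A value of 0 means no uncertainty of that kind in the count of the gene model. In the remaining 55 it had a median of 0.969% of the count and exceeded the coefficient of variation in 8. The highest value was that of snap_masked-scaffold12010-processed-gene-0.1, a model of 258 bases, with 8.27% of the count. Its TPM was 158 (hem37), 166 (hem39) and 168 (hem40), a spread of 3.03%, which is smaller than that uncertainty. Both its level and its steadiness are therefore uncertain. The next was maker-scaffold301670-exonerate_est2genome-gene-0.0 with 6.64%, and its TPM was 113, 102 and 108. All 14 steady models built from expressed sequence had such uncertainty, whereas 17 of the 23 from evm had none. Neither these counts nor the 8 above were set beside other models of the range, so they are a description. Reads of near-identical gene copies could be split between them, and the level of these models is uncertain to that degree.

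The steady models lay on 98 scaffolds, and a pair of them shared a scaffold in 2 cases. On scaffold25226, snap-scaffold25226-processed-gene-0.2 had a TPM of 461 (hem37), 465 (hem39) and 486 (hem40), and evm-scaffold25226-processed-gene-0.17 had 394, 410 and 392. On scaffold75766, snap-scaffold75766-processed-gene-1.17 had 186, 194 and 197 TPM, and maker-scaffold75766-snap-gene-1.34, given above, was lowest in hem37 and highest in hem40 as well. The first pair thus differed in its order of libraries, and the second pair had the same order. Of the 98 scaffolds, 60 carry further models, 162 in all, of which 13 lay in the same TPM range. These 13 had coefficients of variation between 5.44% and 35.5%, with a median of 10.7%. The most variable, maker-scaffold156608-snap-gene-0.10, named for its value, had a TPM of 273 (hem37), 132 (hem39) and 267 (hem40). The steady model of that scaffold, maker-scaffold156608-snap-gene-0.9, had 220, 232 and 222.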

How the data were processed

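Hemocyte RNA was sequenced in 3 libraries. The submitters' processing notes name HISAT2 2.0.4 and RSEM 1.2.30. The genome build, annotation release and read trimming are not given in the sources used here, which name no settings. The authors deposited RSEM expected counts (estimated reads, not normalized), TPM and FPKM for every gene model in each library. The deposited posterior SDs and TPM interval bounds were treated as scores of uncertainty.

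The mean, SD (n - 1) and coefficient of variation were taken from TPM as in the study. Counts were rounded to whole numbers. TMM factors were computed with edgeR 4.0.16 and size factors with DESeq2 1.42.0 (R 4.3.3), on models with a mean count of at least 10. A TPM was rescaled by replacing its total with the scaled library size, with factors set to a geometric mean of 1. Chi-square tests were made with scipy 1.17.1 and were tested on simulated data. No contrast was fitted, because there is a single group. Counting error was 100 divided by the square root of the mean count, and covers sampling of reads only.

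The steady models and all comparisons were chosen with earlier results of these data known. Named models are the 5 highest and 5 lowest in TPM, the 5 steadiest, those at the limits of the rule, the longest and shortest, those with the extreme coefficients after TMM and the largest posterior uncertainty, those with several transcripts and those that share a scaffold. The text names part of them. Alternatives were other scalings, limits, minimum counts, comparison sets and the omission of each library. No genome sequence or annotation was used here.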

Additional observations from a re-analysis of the deposited data

How the results depend on the processing

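No paired analysis was possible because all libraries belong to 1 group. The number of steady models was 155 with TMM and 161 with DESeq2 size factors, 38 and 252 with limits of 0.03 and 0.08 on the coefficient of variation, and 198 and 57 with a minimum mean TPM of 50 and 200. It was 205 to 367 with 1 library left out, where a coefficient from 2 values tends to be smaller, and 265, 421 and 279 with TMM and without hem37, hem39 and hem40. Renormalisation of TPM without the 100 most abundant models, chosen like the preceding setting after seeing the data, gave 210. It multiplied TPM by 1.59 (hem37), 1.63 (hem39) and 1.49 (hem40) before the limit of 100 was applied, so that models of lower deposited TPM could enter. The median coefficient of the reported steady models was 0.0992 with TMM, 0.108 with DESeq2 size factors, 0.0487 without the 100 most abundant models and 0.0247 to 0.0332 with 1 library left out. Those beyond sampling noise numbered 60 with plain library totals, 49 at constant TPM and 44 to 99 with 1 library left out. For the omissions, shares over all models are not given. The log2 ratio of median lengths, steady over other models, was 0.084 and turned to -0.29 with the rule on TMM-scaled TPM and to -0.15, -0.032 and -0.11 without hem37, hem39 and hem40, so that it has no stable direction. The share of chosen models near their mean in the held-out library was 71.8% with a tolerance of 20%, which is wider by construction. Apart from the settings that are wider or narrower by construction, the cause was not tested. In all, 13 alternative values stayed near the reported ones, 22 moved and 4 turned in direction. Spread between these libraries was measured with 3 values, which limits the precision of each coefficient of variation.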

Other observations

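As many as 9 of the 100 models with the highest mean TPM met the same limit on spread and were left out by the rule. The highest of them, maker-scaffold129961-snap-gene-0.1, had a TPM of 4250 (hem37), 4435 (hem39) and 4016 (hem40). The steadiest of them, maker-scaffold19629-snap-gene-0.2, had 2284, 2234 and 2220 TPM, a coefficient of variation of 1.49%. After TMM rescaling its values were 2224 (hem37), 2497 (hem39) and 2040 (hem40), a shift of the same kind as in the 100 steady models. Both were named after their values were seen or by their nearness to the limit.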
